A study of Schizosaccharomyces pombe with 384 samples.

Results

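The large ribosomal subunit of the fission yeast Schizosaccharomyces pombe was followed through the transcripts of its cytoplasmic protein genes. A gene was taken as a member when its name in the deposited expression table was rpl followed by digits only, which selected 74 of the 7259 genes without use of any measured value. The names stood for 42 protein families, of which 12 had 1 gene, 28 had 2 and 2 had 3. The reference annotation named 72 of the 74 as 60S ribosomal proteins, while rpl701 was given as an RNase MRP subunit resembling L7 and rpl44 as a protein with an L28e domain.

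The transcripts of wild type and of 94 haploid knockout strains from a commercial deletion collection were read by 3′ mRNA sequencing. Each strain lacked 1 gene and was grown in YES rich medium in a 96-well format, with 4 libraries per strain and 8 wild-type libraries, which came from wells A1 and A2. Of the 94 deleted genes, 15 were members, and a deleted member was left out of the counts for its own strain. For 6 of the 8 wild-type libraries 1 descriptive field calls the sample a knockout, whereas the strain field and the title call all 8 wild type. Each deletion was represented by a single strain of the collection, so the spread between libraries describes cultures of that strain and not independent deletions.

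The large subunit joins amino acids in its peptidyl transferase centre and releases the growing chain through an exit tunnel, both built mainly of ribosomal RNA and held in place by ribosomal proteins. Other proteins of the subunit bind the 5S RNA, form the base of the stalk that recruits translation factors, shape the arm near the exit site for tRNA, or bridge to the small subunit. Yeast cells make these proteins in large and nearly equal amounts, many from duplicated genes called paralogs, and transcribe the genes together. In S. pombe the promoters of ribosomal protein genes are known for the HomolD box, which takes the place of a TATA element, and for the HomolE box near it.

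The promoters are shown for the gene called lower in most strains (rpl1602), the gene called higher in most strains (rpl4102), the gene that followed the other members most closely (rpl2801) and the family whose genes differed most in level (rpl3401 and rpl3402). Each line holds the 100 bases before the annotated gene start in the RefSeq genome ASM294v3, read 5′ to 3′ on the strand of the gene, and capitals mark a HomolD box, searched as CAGTCACA on both strands.
rpl1602, chrI:4097226-4097325, plus strand: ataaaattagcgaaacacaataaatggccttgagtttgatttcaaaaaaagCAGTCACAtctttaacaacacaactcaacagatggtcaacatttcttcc
rpl4102, chrI:2853932-2854031, minus strand: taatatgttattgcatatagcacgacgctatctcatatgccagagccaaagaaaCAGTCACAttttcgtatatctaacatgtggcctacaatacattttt
rpl2801, chrII:3196363-3196462, plus strand: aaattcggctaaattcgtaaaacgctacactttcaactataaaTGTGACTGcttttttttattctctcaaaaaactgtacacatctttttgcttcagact
rpl3401, chrI:4093799-4093898, minus strand: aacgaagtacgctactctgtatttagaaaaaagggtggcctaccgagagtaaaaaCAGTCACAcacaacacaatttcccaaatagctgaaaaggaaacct
rpl3402, chrIII:1321248-1321347, plus strand: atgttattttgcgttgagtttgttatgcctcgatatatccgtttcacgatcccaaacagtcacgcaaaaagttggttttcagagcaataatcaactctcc
The box lies on the strand of the gene in rpl1602, rpl4102 and rpl3401 and on the other strand in rpl2801. This stretch of rpl3402 holds no exact match, but it contains cagtcacg, which differs from the box in its last letter. The box began 49, 46, 57 and 45 bases before the start of rpl1602, rpl4102, rpl2801 and rpl3401, respectively. From 250 bases before to 50 bases after the gene start, an exact HomolD box was found in 49 of 74 member promoters (66.2%), compared to 2.66% of 5144 genes with an mRNA, with a median position of 50 bases before the start. The core of the HomolE box, searched as CCCTACCCT on both strands, was found in 23 member promoters (31.1%), compared to 1.52% of all, at a median of 69 bases before the start, and 56 members had at least 1 of both motifs. Both motifs were searched separately, 16 promoters held both, and a match is only a match of letters. Members with and without the HomolD box had a median level of 3564 and 2541 CPM in wild type and a median change over the strains of -0.15 and -0.11 on the log2 scale, which was not tested.

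The level of a transcript was given by the authors as CPM, its reads scaled to the size of each library, and 3′ sequencing reads each transcript near its end, so that a CPM was not divided by length. In wild type the members ranged over nearly 2 orders of magnitude. The highest was rpl1102 (SPBC17G9.10, ASM294v2 chromosome II, 2189654 to 2190349), a gene of the uL5 protein that binds 5S RNA, with 5870 CPM in the lowest library, a median of 7167 and 9079 in the highest, and a mean of 7261 ± 1123 (SD, n = 8). It was followed by rpl2102 with 6915 ± 1213 CPM, rpl2302 with 6867 ± 1409, rpl42 with 6669 ± 882 and rpl4101 with 6312 ± 445, and the ranges of these 5 genes overlapped, so that their order was within the spread of the libraries. The protein of rpl4101 is among the smallest of the ribosome and lies at a bridge between the subunits, whereas the protein of rpl42 lies near the exit site for tRNA.

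The lowest member was rpl1603 (SPBC2G2.05, chromosome II, 3443226 to 3445951), the third gene of the uL13 family, with 65.8 CPM in the lowest wild-type library, a median of 81.9, 103 in the highest and a mean of 82.8 ± 10.9 (SD, n = 8). Next came rpl3402 with 134 ± 30.2 CPM, rpl102 with 253 ± 23.5, rpl3002 with 436 ± 58.5 and rpl302 with 471 ± 64.3. The range of rpl102 lay above that of rpl3402 and below that of rpl3002, while rpl1603 and rpl3402 overlapped slightly and rpl3002 and rpl302 broadly. A gene on the opposite strand overlaps rpl1603 and had reads equal to 19.7% of its own, and whether the counting used the strand is not given in the sources used here.

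**Figure D1:**
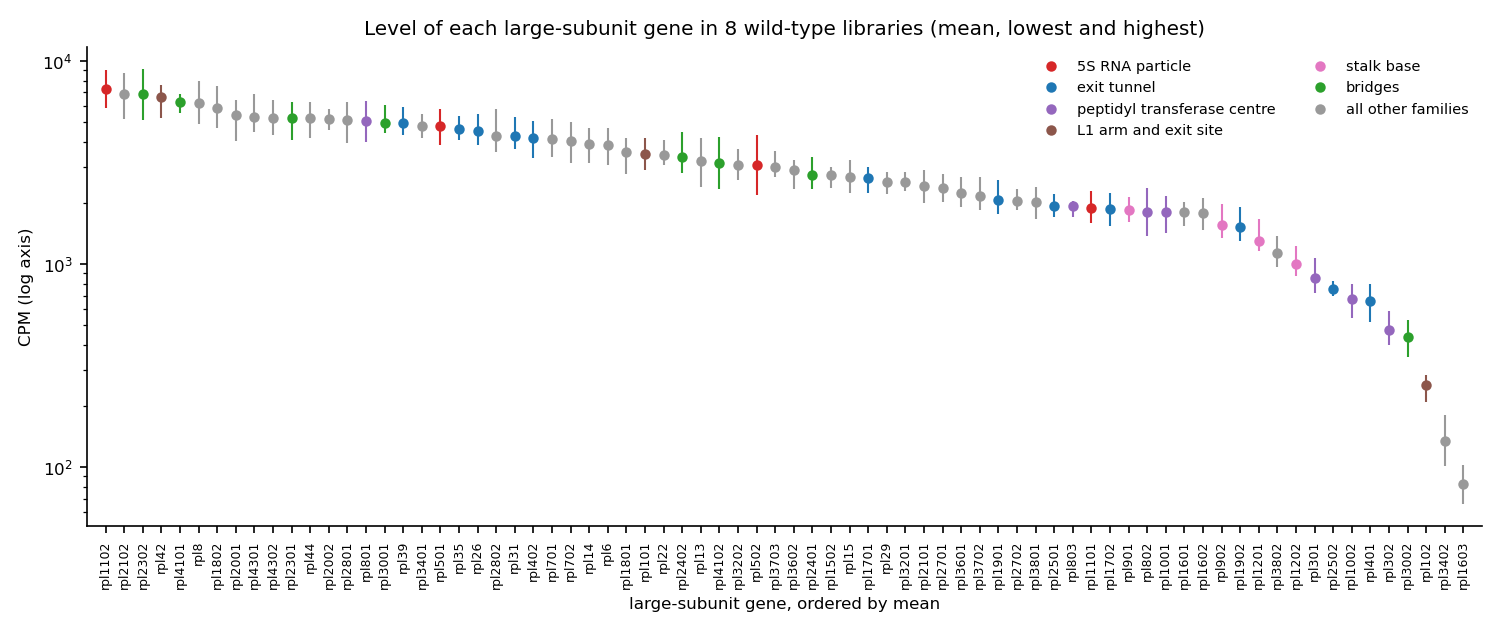
Level of the 74 large-subunit genes in wild type, in CPM on a log axis, ordered by mean. Points are means of 8 libraries, lines run from the lowest to the highest library and colors give the role of the protein; rpl1102 is highest with a mean of 7261, and rpl1603 is lowest with a mean of 82.8.

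In most families with several genes the reads were divided fairly evenly, and in a few 1 gene dominated. Of the 30 such families, 19 had a ratio of the highest to the lowest gene under 2, and 4 had a ratio over 10. The largest ratio was 35.5 for rpl3401 over rpl3402, the L34 genes whose promoters are printed above, followed by 21.8 in the rpl16 family, 13.8 for rpl101 over rpl102 and 11.3 for rpl3001 over rpl3002. At the other end, rpl1502 and rpl15 differed by a ratio of 1.02 and rpl701 and rpl702 by 1.03. Sharing of reads limits such ratios in 3 families, since 85.5% of the 75-base stretches in the last 500 bases of rpl301 also occur in rpl302, and the corresponding shares were 88.3% for rpl1201 and 31.7% for rpl1002. Counts of these pairs, and of rpl501 with rpl502, rpl802 with rpl803, rpl1101 with rpl1102 and rpl2001 with rpl2002 to a lesser extent, are uncertain.

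Between 1337323 and 2659644 reads per library fell on genes, with a median of 1869959 in wild type and 1649955 in the strains. In wild type 21.3% of them fell on members (median, 20.4 to 23.4%), and in the libraries of the strains 21.6% (16.9 to 25.7%), a difference within the wild-type range. The 4 libraries lay below every wild-type library in 3 strains (ers1Δ, cdt2Δ and rpl3201Δ) and above every one in 0. The scaling applied by the authors differed between the groups, with a median factor of 1.10 in wild type and 0.99 in the strains, so the main counts below are also given for CPM computed from the reads on genes alone. All strains were compared with the same 8 wild-type libraries, so the comparisons are not independent of each other.

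Transcripts of the 15 deleted members were examined in their own strains. They were below every wild-type library in 10 strains and overlapped in 5. Reads at the 3′ end may lie outside the removed sequence, in which case they do not check the deletion, and which part of each gene was removed is not given in the sources used here. The clearest losses were rpl3703, with 12.6, 16.3, 20.6 and 12.10 CPM or 0.513% of the wild-type mean, rpl29 with 19.4 to 31.2 CPM or 1.003%, and rpl3801 with 14.9 to 29.4 CPM or 1.08%. Intermediate levels remained for rpl901 (6.93%), rpl501 (6.99%), rpl1801 (9.78%), rpl1601 (10.4%), rpl3602 (38.4%), rpl3202 (58.3%) and rpl2802 (65.3%). For each of these 10 the exact permutation test, two-sided over the 495 splits of 4 and 8 libraries, gave p = 0.00202, the smallest it can give. With all 4 libraries below wild type, no other split has a lower mean for the 4, so the test adds little to the separation.

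The 5 that overlapped with wild type were rpl2101 (73.5% of the wild-type mean, exact p = 0.0222), rpl902 (82.9%, p = 0.212), rpl1602 (84.1%, p = 0.0990), rpl3201 (84.8%, p = 0.00606) and rpl39 (95.2%, p = 0.525). The 4 libraries labelled rpl902Δ had 1129, 1104.8, 2634 and 306 CPM of rpl902, compared to 1341 to 1981 in wild type, so they fell on both sides of it. In the libraries labelled rpl3602Δ the levels of rpl3602 formed 2 levels as well, with 1646 and 1674 CPM in 2 of them and 623 and 536 in the others. Whether such libraries held cells with the intact gene was not tested. For these strains, names such as rpl3201Δ stand below for the libraries so labelled.

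Compared to wild type, the members were predominantly lower in the knockout strains, by a small amount that depended on the scaling. Their median log2 fold change was below 0 in 78 of 94 strains with the deposited CPM and in 49 with CPM from the reads on genes. With the deposited CPM it had a median over the strains of -0.13 and a range from -0.60 to 0.17, while the median of all genes tested was 0.0061. Every member passed the filter on low values in every strain. Calls used the thresholds of the study, a log2 difference from wild type of 0.6 or more in either direction with p no higher than 0.005 by limma. Of 6941 tests of a member in a strain, 396 were called lower (5.71%) and 13 higher (0.187%), against backgrounds of 1.51% lower and 2.1% higher among all tests, so lower calls were more frequent and higher calls less frequent than among all genes. With a Benjamini-Hochberg adjusted p below 0.05 in place of the unadjusted p, 368 were lower and 13 higher, with backgrounds of 1.34% and 1.9%. The lower calls came from 41 strains, 16 strains had 10 or more, and 50 strains had no member call at all. Among all genes, lower and higher calls were made in each of the 94 strains.

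The number of calls depended on the scaling. With CPM from the reads on genes the median of all genes rose by 0.14 on the log2 scale, 114 member tests were called lower and 51 higher, and the backgrounds were 0.6% and 4.53%. The share of lower among all member calls thus went from 96.8% to 69.1%, while among the calls of all genes it went from 41.9% to 11.7%. With CPM over the genes that do not encode ribosomal proteins there were 157 lower and 56 higher calls, at backgrounds of 0.675% and 3.99%, and with each library centred on its median 464 and 9, at 1.72% and 1.93%. Relative to the median of all genes in the same strain, the median member was lower in 77 of 94 strains with the deposited CPM, with a median difference of -0.13 on the log2 scale. A scaling moves all genes of a library alike, so this difference is nearly the same under each of them by construction. The calls also depended on the reference wells, since 212 member tests were called lower when only the 4 wild-type libraries of well A2 were used.

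**Figure D2:**
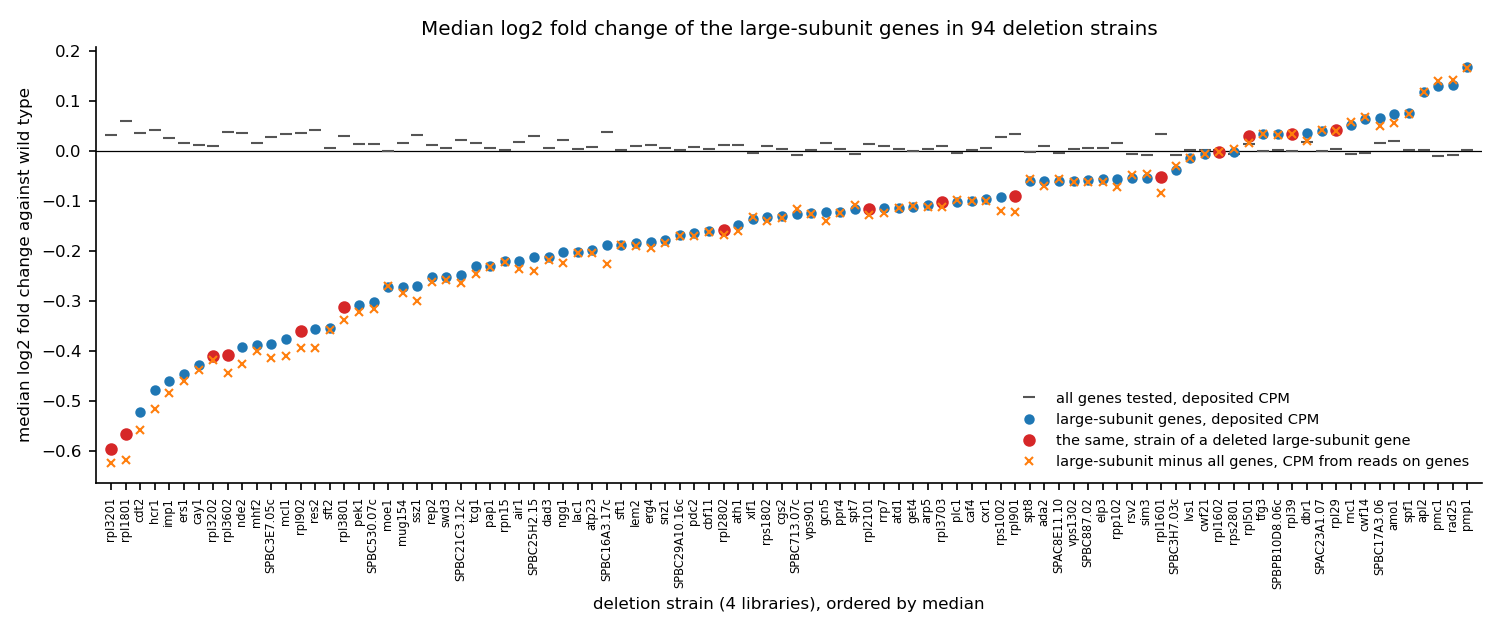
Median log2 fold change against wild type in the 94 strains, ordered along the x axis. Circles are the large-subunit genes (red where the deleted gene was one of them), dashes all genes tested and crosses the difference between both under CPM from the reads on genes; the circles run from -0.60 in rpl3201Δ to 0.17 in pmp1Δ and lie below 0 in 78 strains (49 with CPM from the reads on genes).

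The lower calls were spread unevenly over the genes. How many of all genes were ever called is not given here, so the member counts stand without a background. At least 1 strain had a lower call in 43 of 74 members, 5 members had a higher call, and 28 were never called. The most frequent was rpl1602 (SPAC23A1.11, chromosome I, 4097268 to 4098123), a gene of the uL13 family, which was called lower in 31 of 93 strains and had a median log2 fold change of -0.43 over the strains. It was lowest in rpl3201Δ, where the 4 libraries had 418, 475, 493 and 507 CPM, compared to 1469 to 2119 in wild type with a median of 1824 (log2 fold change -1.90 ± 0.11 SE, limma adjusted p = 2.79e-09). None of these libraries overlapped with wild type.

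The next was rpl801, a gene of the uL2 protein near the peptidyl transferase centre, with lower calls in 21 strains. In hcr1Δ, where it was lowest, it had 1286, 1787, 1634 and 1387 CPM, compared to 4010 to 6323 in wild type (log2 fold change -1.74 ± 0.15 SE, limma adjusted p = 1.13e-06). The product of hcr1 is known as a subunit associated with the translation initiation factor eIF3. Lower calls were made in 18 strains each for rpl1102 and rpl1601, the main gene of the uL5 family and another gene of the uL13 family. In rpl1801Δ the libraries of rpl1102 were uneven, with 1622, 3354, 1844 and 4554 CPM, and all lay below the lowest wild-type library with 5870 (log2 fold change -1.47 ± 0.23 SE, limma adjusted p = 1.13e-04).

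Next in order were rpl3002, rpl301 and rpl402 with 17 strains each. The eL30 protein encoded by rpl3002 lies at a bridge to the small subunit, and its transcript behaved unlike that of its main paralog rpl3001, which was never called. Its median log2 fold change was only -0.08, and single strains differed widely, from -1.36 in hcr1Δ to 0.55 in elp3Δ. In hcr1Δ its 4 libraries had 205, 206, 146 and 131 CPM, compared to 348 to 528 in wild type, with no overlap. With CPM from the reads on genes, rpl301 had the most lower calls (13 strains), followed by rpl3002 (10), rpl1602 (9) and rpl801 (9).

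**Figure D3:**
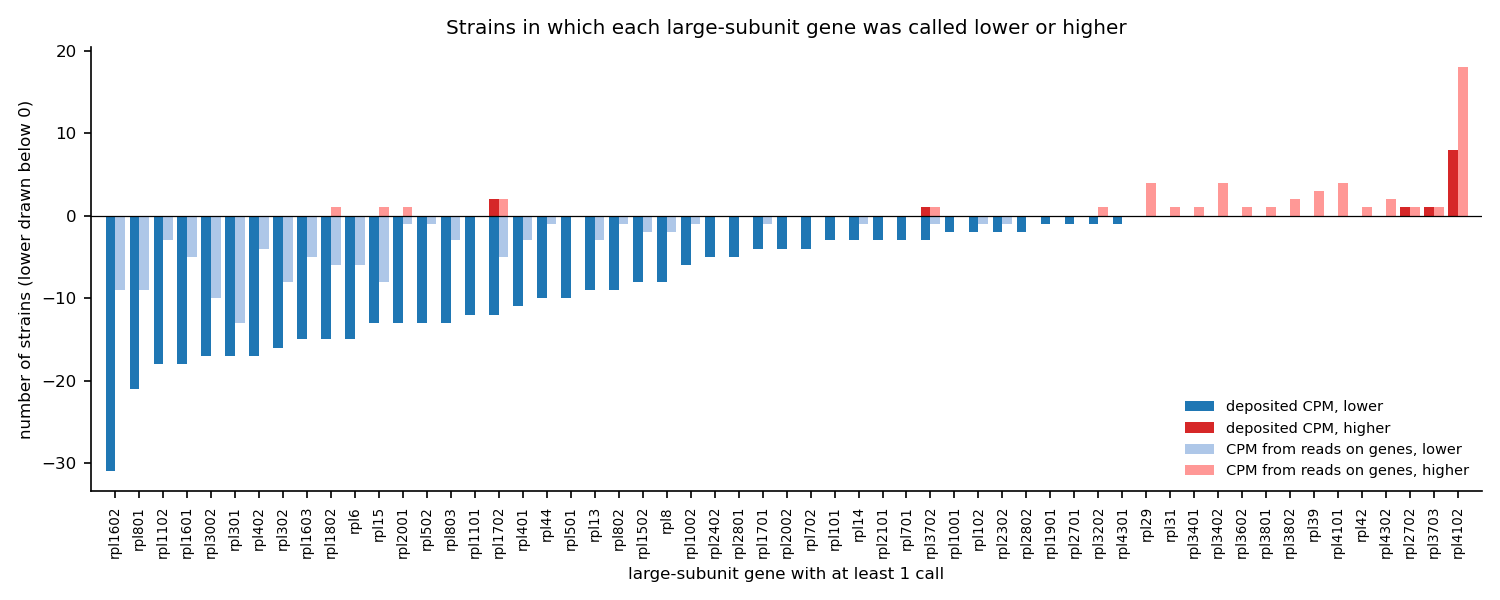
Number of strains in which each large-subunit gene with at least 1 call was lower (bars below 0) or higher (bars above 0) than in wild type, for the deposited CPM and for CPM from the reads on genes. Lower calls are led by rpl1602 with 31 strains and fall to 9 under the other scaling, and higher calls are led by rpl4102 with 8 and 18 strains.

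Of the 13 higher calls, 8 were made for rpl4102 (SPAC3F10.18c, chromosome I, 2853647 to 2853947), which encodes the very short eL41 protein at a bridge between the subunits. In rpl1801Δ it had 6346, 8770, 9775 and 6013 CPM, compared to 2353 to 4241 in wild type with a median of 2988 (log2 fold change 1.30 ± 0.19 SE, limma adjusted p = 7.46e-05). These libraries were all above wild type, whereas at least 1 library overlapped with wild type in each of the other 7 strains (ssz1Δ, SPBC16A3.17cΔ, rpl3801Δ, rpl501Δ, rps1002Δ, rpl3703Δ and gcn5Δ). In ssz1Δ, for example, the libraries had 3356, 4047, 8329 and 8440 CPM, so 2 were within the wild-type range and 2 above it. With CPM from the reads on genes rpl4102 was called higher in 18 strains and lower in 0.

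The remaining 5 higher calls showed no overlap with wild type. The exit tunnel gene rpl1702 was higher in rnc1Δ, with 3483, 3700, 3717 and 2882 CPM compared to 1534 to 2231 (log2 fold change 0.89 ± 0.12 SE, limma adjusted p = 5.06e-04), and in SPBC17A3.06Δ (0.82 ± 0.15 SE). The gene rnc1 encodes an RNA-binding protein. In rps2801Δ, which lacks a gene of the small subunit, rpl2702 (log2 fold change 0.74 ± 0.11 SE) and rpl3702 (0.71 ± 0.13 SE) were higher, and in mcl1Δ rpl3703 was higher (0.62 ± 0.13 SE). The same rpl1702 was called lower in 12 other strains, down to -1.53 in rpl1801Δ.

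When grouped by the known place of their proteins in the subunit, the members of the 5S RNA particle (rpl5 and rpl11 families, 4 genes) were called lower in 53 of 375 tests (14.1%). The members of the peptidyl transferase centre (rpl3, rpl801 to rpl803 and rpl10 families, 7 genes) followed with 84 of 658 (12.8%). The 12 exit tunnel genes were lower in 45 of 1127 tests (3.99%), the 8 bridge genes in 24 of 752 (3.19%), with 8 higher calls that all came from rpl4102, and the 3 genes of the L1 arm and exit site in 5 of 282 (1.77%), which is near the 1.51% of all tests. The 4 genes of the stalk base (rpl9 and rpl12 families) had 0 calls in 374 tests by limma, since none reached a fold change of 0.6. An unadjusted p under 0.05 was found in 66 of these tests, 61 of them lower, and the share of all tests at that p is not given here. The median log2 fold change of the stalk base genes was -0.07. In rpl1801Δ it was -0.35, compared to -1.001 for the 5S particle and -1.35 for the peptidyl transferase centre. The other 21 families were lower in 185 of 3373 tests (5.48%). The groups were formed from roles known in eukaryotic ribosomes generally, and they also differ in the length of their genes.

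The change over the strains was related to coding length, a feature not used to select the members. Over the 74 genes, Spearman's rho of coding length with the median log2 fold change over the strains was -0.75, as a description across genes that share all libraries. In the 25 shortest members (from 78 to under 411 bases) 35 of 2343 tests were called lower (1.49%, near the 1.51% of all tests) and 10 higher, with a median change of -0.017. In the 25 of middle length (411 to 582 bases) 97 of 2345 were lower (4.14%) and 3 higher with a median of -0.13, and in the 24 longest (582 to 1167 bases) 264 of 2253 were lower (11.7%) and 0 higher with a median of -0.24. With CPM from the reads on genes 13, 17 and 84 tests were lower (0.555, 0.725 and 3.73%, compared to 0.6% of all tests) and 45, 5 and 1 higher (1.92, 0.213 and 0.0444%, all below the 4.53% of all tests).

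The relation was negative in 90 of 94 strains, with a median rho of -0.58 and a range from -0.80 in ssz1Δ to 0.48 in sft2Δ. Within the libraries of replicate numbers 1, 2, 3 and 4 it was -0.75, -0.66, -0.37 and -0.58, and between the wild-type wells A2 and A1, which hold the same strain, it was -0.39. For 55 small-subunit genes rho was -0.45, and for 4171 other protein-coding genes -0.30. The quality of the RNA and the length of the fragments in each library were not analysed here.

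**Figure D4:**
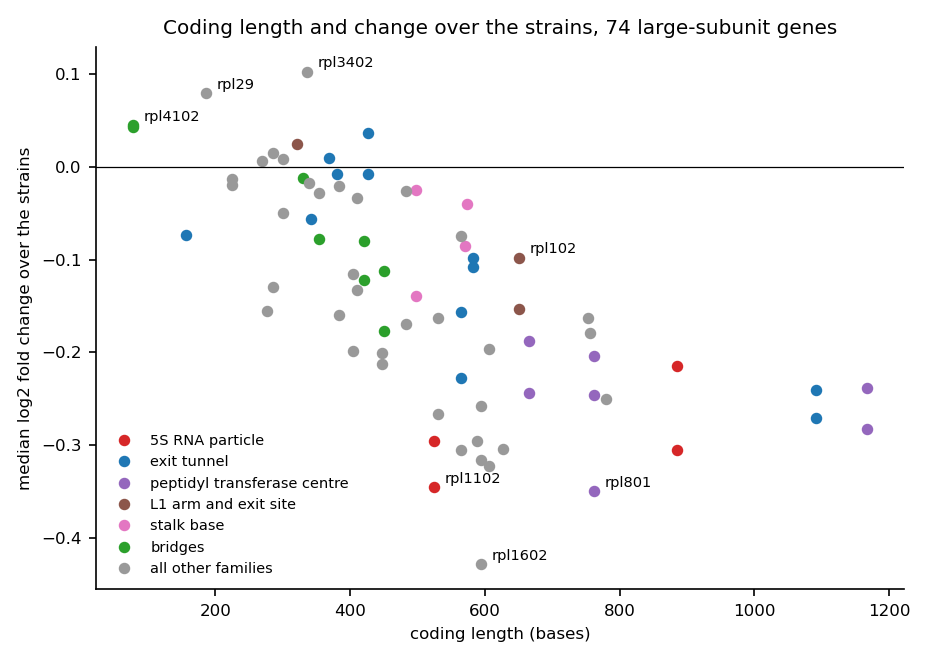
Median log2 fold change over the strains against coding length in bases for the 74 large-subunit genes, 1 point per gene, colored by role. The short genes lie near 0, rpl3402 and rpl29 are highest and rpl1602 is lowest with -0.43, and Spearman's rho is -0.75.

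Most members rose and fell together over the strains. The mean log2 CPM of a member in the 94 strains correlated with the mean of the other members with a median Pearson's r of 0.82 over the 74 genes, from -0.06 to 0.96. These values describe strains that share their plates and scaling and carry no test. Centring each library on its median gave a median of 0.81. The closest were rpl2801 (0.96), rpl2101 (0.96), rpl1101 (0.95), rpl701 (0.94) and rpl101 (0.94). Within each replicate number the value for rpl2801 was between 0.94 and 0.97.

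The members that followed the others least were rpl4102 (-0.06), rpl3402 (0.05), rpl102 (0.09), rpl29 (0.29) and rpl39 (0.35). Of these, rpl3402 and rpl102 are the minor genes of their families, while the paralog rpl101 was among the closest. The protein of rpl29 binds at the surface near the functional centre of the subunit, and that of rpl39 lines the exit tunnel. Both have short coding sequences with 186 and 156 bases and had no lower call in any strain. For rpl4102 the value was between -0.17 and 0.13 within the replicate numbers.

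Of 15 paralogs compared with wild type, 0 were called higher by limma and 1 was called lower, and the unadjusted p was under 0.05 for 3, all of them lower. Of these 15 comparisons, 5 come from libraries in which the deleted gene itself overlapped with wild type (2 in rpl1602Δ and 1 each in rpl902Δ, rpl2101Δ and rpl3201Δ). The paralog called was rpl1802 in rpl1801Δ, both genes of the eL18 family, with 1416, 2956, 1429 and 3786 CPM compared to 4674 to 7525 in wild type. Its mean of 2397 ± 1175 (SD, n = 4) was 40.8% of wild type (log2 fold change -1.41 ± 0.23 SE, exact permutation p = 0.00202, or 0.0303 adjusted over the 15). The transcripts of rpl1802 in this strain thus amounted to 25.4% of the wild-type sum of both genes.

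In libraries labelled rpl3201Δ, rpl3202 was at 2343 to 2520 CPM compared to 2609 to 3681, or 78.0% of wild type (log2 fold change -0.35 ± 0.10 SE, exact permutation p = 0.00404, adjusted 0.0303). Conversely, rpl3201 was at 85.1% in rpl3202Δ, with 1 library inside the wild-type range (exact permutation p = 0.00606, adjusted 0.0303). Both values of this L32 family were above the median of the members in the same strain, which was -0.60 and -0.41 on the log2 scale, and both turned positive, to 0.13 and 0.062, with CPM from the reads on genes. In rpl1601Δ, rpl1602 was at 74.2% (exact permutation p = 0.0141, adjusted 0.0530), with 1130, 1249, 1706 and 1191 CPM and 1 library inside the wild-type range.

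The other 11 paralogs lay between 82.4 and 119% of the wild-type mean, with exact permutation p from 0.109 to 0.941, and their libraries overlapped with wild type. The highest was rpl3802 in rpl3801Δ, with 1288, 1448, 1669 and 993 CPM compared to 971 to 1380 (119%, log2 fold change 0.24 ± 0.14 SE). In wild type the deleted rpl3801 had contributed 64.1% of the summed CPM of both genes, and rpl3802 in the strain reached 42.8% of that sum. Likewise, the sum of the other rpl16 genes was at 94.7% of its own wild-type level in rpl1602Δ and at 75.7% in rpl1601Δ. A p that misses the threshold does not show that these paralogs were unchanged.

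**Figure D5:**
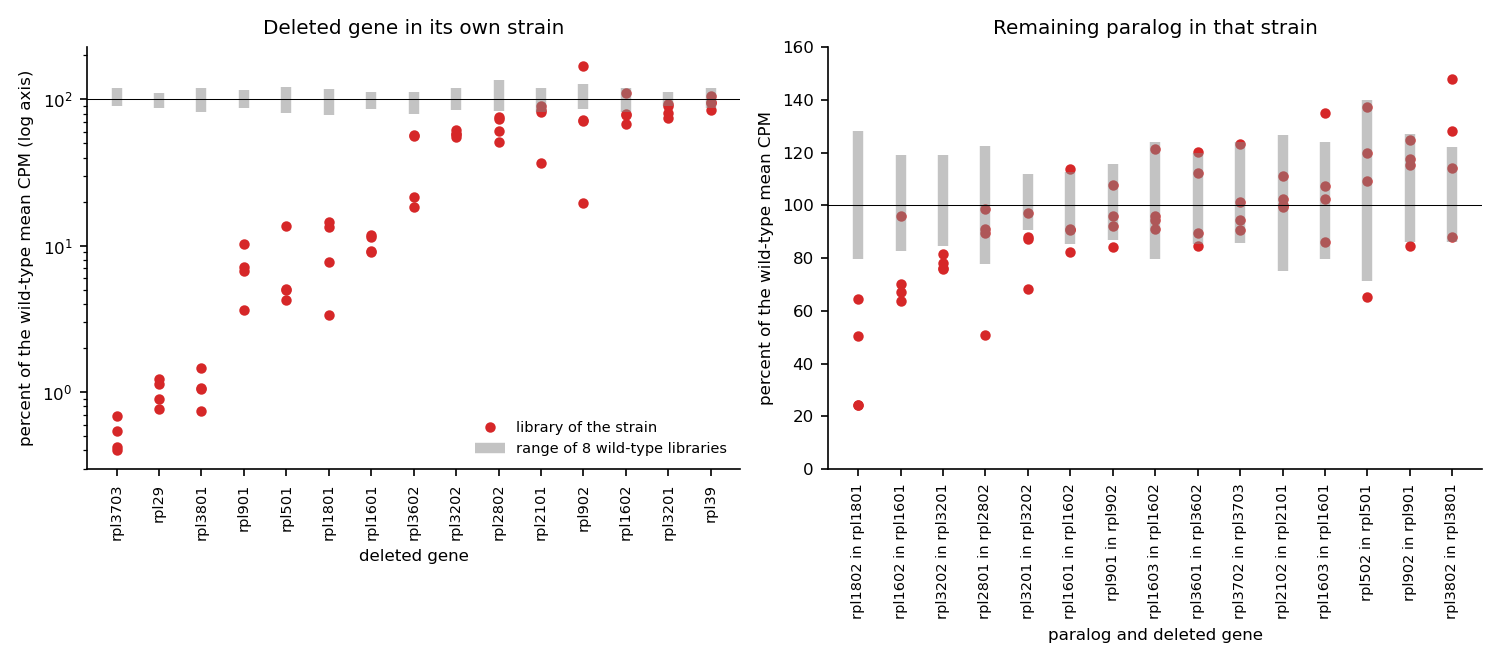
Level of the 15 deleted genes in their own strains (left, log axis) and of the remaining paralogs in those strains (right), in percent of the wild-type mean. Red points are the 4 libraries of a strain and grey bars the range of the 8 wild-type libraries; rpl3703 fell to 0.513%, rpl39 stayed at 95.2%, and rpl1802 in the rpl1801 deletion is the paralog farthest below wild type with 40.8%.

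In the 15 strains of deleted members, 157 of 1095 tests of other members were called lower (14.3%) and 4 higher, compared to backgrounds of 2.92% and 3.22%. In the 75 strains that lack no ribosomal protein gene, 237 of 5550 were lower (4.27%), compared to a background of 1.21%. In the 4 strains that lack another ribosomal protein gene (rps2801Δ, rps1002Δ, rps1802Δ and rpp102Δ), 2 of 296 were lower (0.676%) and 3 higher, below backgrounds of 1.9% and 2.46%. The lower calls were concentrated in few strains. There were 36 in rpl3201Δ, 36 in rpl1801Δ, 21 in rpl3602Δ and 18 each in rpl902Δ and rpl3801Δ. The background was 4.62% lower in rpl3201Δ and 10.12% in rpl1801Δ, and it is not given here for rpl3602Δ, rpl902Δ and rpl3801Δ. By contrast, rpl1602Δ, rpl2101Δ, rpl29Δ and rpl39Δ had 0 lower calls, with 0, 8, 1 and 0 members at an unadjusted p under 0.05. The share of all genes at that p is not given here. The deleted gene itself overlapped with wild type in rpl3201Δ and rpl902Δ, and also in rpl1602Δ, rpl2101Δ and rpl39Δ. The median member was below 0 in 12 of the 15 strains with the deposited CPM and in 7 with CPM from the reads on genes.

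In rpl1801Δ, which had a median member log2 fold change of -0.57, 36 of 73 members were called lower and 1 higher, with backgrounds of 10.12% and 11.85%, so many other genes changed as well. The 3 members with the smallest p were rpl302, rpl803 and rpl301, of the uL3 and uL2 proteins near the peptidyl transferase centre. The libraries of rpl301 had 225, 271, 222 and 468 CPM, compared to 721 to 1070 in wild type (log2 fold change -1.59 ± 0.17 SE, limma adjusted p = 4.13e-06). The other 2 reached -1.44 and -1.35, and the fourth library was the highest in each of these genes.

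In rpl3201Δ the median was -0.60, and 36 of 73 members were lower and 0 higher, with a background of 4.62% lower. The smallest p belonged to rpl1602, given above, to rpl15 with 682, 769, 875 and 866 CPM compared to 2230 to 3246 (log2 fold change -1.74 ± 0.12 SE, limma adjusted p = 6.18e-09), and to rpl1601 (-1.38 ± 0.09 SE). The library scaling was low in both strains, with a median factor of 0.79 in rpl3201Δ and 0.80 in rpl1801Δ. With CPM from the reads on genes, 17 of 73 members were lower and 0 higher in rpl3201Δ, against backgrounds of 1.12% and 25.46%. In rpl1801Δ 19 of 73 were lower and 13 higher, against 2.88% and 33.17%, so higher calls were less frequent among the members than among all genes in both strains. The median of all genes was then 0.51 and 0.52.

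Strains with other deletions reached similar medians. The third lowest was cdt2Δ, which lacks a factor of a ubiquitin ligase that acts on replication proteins, with -0.52 and 18 of 74 members called lower (background 2.14%), led by rpl1101, rpl1601 and rpl1603. In this strain rpl1101 had 921, 1186, 1181 and 1064 CPM compared to 1600 to 2287 in wild type (log2 fold change -0.78 ± 0.12 SE, limma adjusted p = 2.98e-04). Its members had 0 lower calls with CPM from the reads on genes, where the median of all genes was 0.38 higher. In hcr1Δ the median was -0.48, and 31 of 74 members were lower (background 4.85%), while with CPM from the reads on genes 10 were lower and 4 higher, against backgrounds of 1.05% and 18.48%.

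At the other end stood pmp1Δ (median 0.17), rad25Δ (0.13) and pmc1Δ (0.13), in which 0 members were called by limma. An unadjusted p under 0.05 was found for 9, 2 and 8 of 74 members, respectively, all of them higher. The share of all genes at that p is not given here, so these counts stand without a background. The members with the smallest p were rpl3702 in pmp1Δ (log2 fold change 0.38 ± 0.13 SE), rpl2501 in rad25Δ (0.24 ± 0.11 SE) and rpl2501 in pmc1Δ (0.32 ± 0.11 SE), and their libraries overlapped with wild type. In pmc1Δ the libraries of rpl29, with 2883, 3130, 3649 and 2919 CPM, lay above the highest wild-type library with 2833 (log2 fold change 0.31 ± 0.10 SE, limma adjusted p = 0.989). The gene pmp1 encodes a phosphatase of the stress kinase pathway, rad25 a regulatory protein that binds phosphorylated partners, and pmc1 a calcium-transporting ATPase.

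For 3 families both paralogs were deleted in separate strains, which allowed a comparison without wild type. Between rpl902Δ and rpl901Δ, 0 of 72 members were called by limma, at a background of 0.25%. An unadjusted p under 0.05 was found for 0 members and for 256 of 5591 genes, although the median member difference was -0.22 on the log2 scale. Between rpl3202Δ and rpl3201Δ the background was 2.49% in either direction, with 65 of 5545 genes higher in rpl3202Δ and 73 lower. An unadjusted p under 0.05 was found for 25 of 72 members, compared to 821 of 5545 genes, and the median member difference was 0.27 on the log2 scale. In rpl3202Δ 4 of 72 members were called higher and 0 lower, and 0 passed the adjusted p. The first of them was rpl13, with 869, 2146, 2936 and 2278 CPM in rpl3202Δ compared to 823, 881, 915 and 1027 in rpl3201Δ (log2 difference 1.05 ± 0.29 SE, limma adjusted p = 0.154), where the first library overlapped with the other strain.

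Between rpl1602Δ and rpl1601Δ, 2 of 72 members were higher in rpl1602Δ and 0 lower, near the share of all genes. Of 5512 genes, 89 were higher and 33 lower, a background of 2.21% in either direction. An unadjusted p under 0.05 was found for 9 of 72 members, compared to 712 of 5512 genes. The bridge gene rpl3002 had 395, 448, 534 and 356 CPM in rpl1602Δ and 182, 206, 197 and 213 in rpl1601Δ, without overlap (log2 difference 1.10 ± 0.14 SE, limma adjusted p = 0.00363). The other was rpl301 with a log2 difference of 0.76 ± 0.16 SE, which missed the adjusted threshold (limma adjusted p = 0.0511). In the libraries labelled rpl1602Δ the deleted gene itself stood at 84.1% of its wild-type level, as given above.

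As a measure of how far cultures of 1 strain differed, the 4 wild-type libraries of well A2 were compared with those of well A1. No member was called by limma (0 of 74), at a background of 0.0365%. An unadjusted p under 0.05 was found for 0 members and for 76 of 5484 genes. The member differences ran from -0.19 to 0.02 on the log2 scale with a median of -0.08, so the members were mostly lower in well A2. Within replicate numbers 1, 2, 3 and 4 the median member of a strain changed by -0.22, -0.17, -0.20 and -0.0095 relative to wild type of the same number, which was 1 library each for numbers 1 and 2 and 2 libraries each for numbers 3 and 4. A pair of further wild-type libraries, both from well A2 and numbered 2, was not used here. In the libraries of number 4 the members were nearly at the wild-type level.

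The small-subunit protein genes moved with the members, whereas the stalk protein genes had lower and higher calls. Of 5167 tests of the 55 small-subunit genes (named rps with digits) 374 were lower (7.24%) and 3 higher (0.0581%). The stalk list held 7 genes for the acidic stalk proteins and their anchor (rpp0, rpp101 to rpp103 and rpp201 to rpp203). Of its 657 tests 82 were lower (12.5%) and 17 higher (2.59%), compared to backgrounds of 1.51% and 2.1% among all tests. In the strains of deleted members 26 of 105 stalk tests were lower (24.8%) and 7 higher (6.67%), compared to backgrounds of 2.92% and 3.22%. In each strain the median member was close to the median small-subunit gene, with differences from -0.03 to 0.14 on the log2 scale and a median of 0.02. The stalk genes had the larger median change, with -0.27 over the strains and -1.34 in rpl3201Δ.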

How the data were processed

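Transcripts of wild type and 94 haploid deletion strains were measured by 3′ mRNA sequencing in 384 libraries. Per the labels and the methods of the study, the authors aligned the reads with STAR 2.6.1b to the ASM294v2 genome, and the deposited values are CPM after a scaling of each library. HTSeq 0.9.0 and Subread 1.6.2 are both named in the submitters' processing notes, and which one counted and whether it used the strand is not given in the sources used here. Deposited values were written with 10 decimals, and every value of 1 CPM or more had lost its decimal point. The point was restored by requiring each value to be a whole number of reads times the CPM of 1 read in that library. All 28416 member values had lost it, 7439 of them (26.2%) fitted several positions and were placed by the level in the same strain, and 0 remained unresolved. In 52 simulated libraries, drawn around the restored counts, 0 of 3848 member values were placed wrongly, which does not check the real placements themselves. Of the real member values, 5 had a close alternative position, and 7 were placed differently without the level of the strain. The file is thus neither counts nor CPM as written, so limma took the place of a count model.

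Log2 CPM without a pseudocount was fitted with limma 3.58.1 in R 4.3.3 for each strain separately (4 libraries against 8 of wild type) over all genes with at least 75% of values of 1.006722 CPM or more. A call required a log2 fold change of 0.6 in size and p of at most 0.005, and adjusted p are Benjamini-Hochberg values over all genes tested. The study imputed the missing value where 3 of 4 were measured, and none was imputed here. Single values were compared by exact permutation of libraries. The study calls the libraries of a strain biological replicates. No 2 libraries of 1 group agreed within counting noise (lowest chi-square per degree of freedom 1.42 over 592 pairs). The named genes were, by rule, the 5 highest and the 5 lowest in wild type, every deleted member and remaining paralog, the 5 members called most often in each direction, the 5 with the highest and the 5 with the lowest correlation, and the 3 with the smallest p in the 3 lowest and 3 highest strains and in each comparison of paralog deletions. The members, lists and genes were chosen with earlier results of these data known, and hcr1Δ and single higher calls were named after their values were seen. All 74 members matched the RefSeq annotation of ASM294v3, which gave sequences, motifs and coding lengths, whereas gene coordinates are those of the deposited table in ASM294v2. Other scalings, a pseudocount, other filters, an adjusted threshold, the replicate number as a block, 1 fit over all libraries, single wild-type wells and left-out libraries were tried as alternatives.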

Additional observations from a re-analysis of the deposited data

Results flagged for a closer look

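Libraries were compared within 116 groups of 4 or 8 values, and in 6 of them 1 library stood apart from the others by Dixon's criterion, a number that chance reaches in about 1 of 20 groups. In rpl501Δ the third library had 650.8 CPM of the deleted rpl501, compared to 202 to 241 in the others, and in the libraries labelled rpl2101Δ the first had 899.4 CPM of rpl2101, compared to 1994 to 2198. The highest library of rpl1603 in the libraries labelled rpl1602Δ had 100.5 CPM, compared to 75.2 to 79.4.

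In rpl1801Δ the fourth library stood apart for rpl302 with 248.9 CPM, compared to 151 to 153, and for rpl803 with 1152 CPM, compared to 625 to 699. This library remained below every wild-type library for both genes. In rpl901Δ the second library had 8340 CPM of rpl2302, compared to 6733 to 6844.

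A difference between strains was found for rpl3002, which was higher in rpl1602Δ than in rpl1601Δ by 1.105 on the log2 scale (limma adjusted p = 0.00363), with 4 of 4 libraries above those of the other strain.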

How the results depend on the processing

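The count of 396 lower calls fell to 114 with CPM from the reads on genes, to 157 with CPM over the genes other than ribosomal protein genes, to 212 against wild type of well A2 alone and to 224 where only values with 1 possible decimal point were used, and it was 318 to 567 when 1 replicate number or wild-type library was left out. The 13 higher calls became 51 and 56 under these scalings, 6 with a pseudocount of 1 CPM and no filter, 5 against well A1, 8 against well A2 and 3 with 1 possible decimal point, and 6 to 22 with left-out libraries (22 without replicate 1, 6 without replicate 3 or 4, and 7 or 8 without 1 of the 4 wild-type libraries numbered 1 or 2). In the strains of deleted members the 157 lower calls became 61 and 65 under the scalings, 98 against well A2 and 85 with 1 possible decimal point (130 to 183 with left-out libraries), and the 4 higher calls became 23 and 26 under the scalings and 1 with the pseudocount, either well or 1 possible decimal point (1 to 9 with left-out libraries). A median below 0 was then found in 49 of 94 strains with CPM from the reads on genes, against 78 (71 to 88 with left-out libraries), and in 7 of the 15 strains under either scaling, against 12. The called paralog, rpl1802 in rpl1801Δ, could not be fitted with 1 possible decimal point, which left 0 called. Among 33 values of named genes in strains, 751 of 779 alternatives kept the direction and the call, and 23 turned the direction of 8 paralogs that were not called. CPM from the reads on genes gave 0.24 for rpl901 in rpl902Δ (0.19 over the other genes), 0.062 for rpl3201 in rpl3202Δ and 0.13 for rpl3202 in rpl3201Δ. For rpl1603 in rpl1602Δ the replicate block gave -0.023, the same libraries without it -0.054 and well A1 -0.050, and left-out libraries -0.083 to 0.057. For rpl3702 in rpl3703Δ the same libraries gave -0.0061 and well A1 -0.021 (left-out libraries -0.060 to 0.088), and for rpl3601 in rpl3602Δ centring gave -0.017, the same libraries -0.010 and well A1 -0.026 (left-out libraries -0.070 to 0.0996). Left-out libraries ranged from -0.042 to 0.32 for rpl502 in rpl501Δ and from -0.016 to 0.20 for rpl1603 in rpl1601Δ. The call was lost in 5, all of them in cdt2Δ, where rpl1101 reached -0.44 and -0.59, rpl1601 -0.35 and -0.50 under the 2 scalings and rpl1603 -0.56 with CPM from the reads on genes. The cause of these shifts was not tested.

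With the replicate number as a replicate block there were 453 lower and 13 higher calls, and without the replicate block in the same libraries 415 and 5, with 1 higher call in the strains of deleted members. Libraries of the same number deviated together with a median r of 0.25, against -0.09 for different numbers, and 86.7% of same-number pairs exceeded 0.1. All 4 libraries exceeded 0.1 with the wild-type libraries of their number in only 68 of 94 strains. By this rule the number is not taken as a pairing, and the main fits leave it out.

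The member with the fewest reads was rpl1603, with 30 in its lowest library, so its fold changes are the least precise.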
